A study of Mus musculus with 56 samples.

Results

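The genes described here are 10 genes of hepatocytes around the central vein whose expression is tied to Wnt signalling: Glul, Slc1a2, Rhbg, Lgr5, Axin2, Tbx3, Rnf43, Cyp2e1, Cyp1a2 and Lect2. They were taken by gene symbol from the deposited table of 21935 genes, and all 10 were found and passed the filter on low counts that left 14105 genes for testing. The table holds read counts of terminal liver from 56 male C57BL/6J mice in 7 groups of 8. All mice arrived at 5 to 6 weeks of age and were fed for 36 weeks before dosing, either on chow or on the AMLN diet, a feed with much fat, fructose and added cholesterol. They were then dosed subcutaneously once a day for 8 weeks. The chow vehicle group ate chow and the DIO-MASH vehicle group (diet-induced obese mice with metabolic dysfunction-associated steatohepatitis) ate the AMLN diet. The other AMLN-fed groups received zalfermin, a long-acting FGF21 analog, at 0.05 mg/kg (zalfermin low) or 0.2 mg/kg (zalfermin high), or semaglutide, a GLP-1 receptor agonist, at 3 µg/kg (semaglutide low) or 120 µg/kg (semaglutide high). The combination group received 0.05 mg/kg zalfermin and 3 µg/kg semaglutide by the study's methods. The design text deposited with the data names high doses of both for this group, and the doses of the methods are used here. AMLN-fed mice entered the study only with biopsied steatosis and fibrosis, so they are a selected set, and the labels tie each library to 1 mouse.

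The liver lobule is zonated along the flow of blood from the portal vein to the central vein. Endothelial cells of the central vein and neighbouring sinusoids secrete Wnt ligands and the R-spondin RSPO3, which stabilise beta-catenin in the nearest hepatocytes. Glutamine synthetase (Glul) is the classical product of this signal and is confined to the last rows of hepatocytes, which scavenge ammonia as glutamine. The glutamate transporter Slc1a2 and the ammonia transporter Rhbg serve the same step. Lgr5, an R-spondin receptor, Axin2, a scaffold of the complex that degrades beta-catenin, Rnf43, a ubiquitin ligase that removes Wnt receptors, and the transcription factor Tbx3 are widely used readouts of the pathway. Cyp2e1 and Cyp1a2 are pericentral cytochrome P450 enzymes that oxidise ethanol, acetaminophen and caffeine, and Lect2 encodes a secreted hepatokine that beta-catenin induces.

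The levels of these genes spanned several orders of magnitude. Values are CPM, the reads of a gene scaled to a common library total with TMM factors, which centre most genes on no change. Divided by exon length, Cyp2e1 stood highest with a mean level of 3819 CPM per kilobase over all mice, followed by Glul with 529.9, Cyp1a2 with 186.9 and Lect2 with 128.9. Slc1a2 had a mean level of 15.4 CPM per kilobase, Tbx3 of 3.74, Rnf43 of 3.34, Rhbg of 1.01, Axin2 of 0.807 and Lgr5 of 0.541. The libraries held 5228187 to 20885786 reads with a median of 12206788, and the low genes were read thinly. Rhbg had 0 to 55 reads a mouse, Axin2 10 to 115 and Lgr5 25 to 160, whereas Cyp2e1 never had fewer than 38814. Differences in Rhbg, Axin2 and Lgr5 are therefore the least precise.

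In GRCm38, Glul lies on the plus strand of chromosome 1 (153899944 to 153909723) and Slc1a2 on that of chromosome 2 (102658659 to 102790784). Cyp2e1 lies on the plus strand of chromosome 7 (140763739 to 140774987) and Cyp1a2 on the minus strand of chromosome 9 (57676937 to 57683703). Lgr5 lies on the minus strand of chromosome 10 (115450311 to 115587780). Rhbg shares 1190 exonic bases with Gm38392 on the same strand, so its reads may have been split, although Gm38392 had at most 1 read in any mouse. Glul shares 116 exonic bases with Teddm2 on the other strand, which had a median of 36 reads against 21026 of Glul. Antisense genes that overlap exons of Slc1a2, Axin2 and Tbx3 are annotated but have no row in the table. Whether the counting used strand is not given in the sources used here.

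For 7 of the 10 genes a promoter window was found in RefSeq (GRCm38.p6), reaching from 250 bases before to 50 bases after a transcription start. The windows of 4 genes that passed the test in at least 1 comparison are shown, because Slc1a2, Cyp2e1 and Cyp1a2 were lower and Glul was higher in DIO-MASH vehicle than in chow. They lie at chr1:153899679-153899978 (Glul, plus strand), chr2:102706188-102706487 (Slc1a2, plus), chr7:140763569-140763868 (Cyp2e1, plus) and chr9:57683606-57683905 (Cyp1a2, minus). Each is given 5′ to 3′ on the strand of its gene, with capitals marking CTTTGA, the core letters bound by TCF/LEF factors, or its reverse complement TCAAAG.
Glul: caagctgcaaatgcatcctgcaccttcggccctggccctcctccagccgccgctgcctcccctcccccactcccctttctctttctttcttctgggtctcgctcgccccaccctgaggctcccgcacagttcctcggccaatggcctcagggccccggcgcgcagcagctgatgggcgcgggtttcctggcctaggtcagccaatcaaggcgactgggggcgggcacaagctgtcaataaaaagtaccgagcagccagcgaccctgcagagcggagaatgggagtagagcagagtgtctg
Slc1a2: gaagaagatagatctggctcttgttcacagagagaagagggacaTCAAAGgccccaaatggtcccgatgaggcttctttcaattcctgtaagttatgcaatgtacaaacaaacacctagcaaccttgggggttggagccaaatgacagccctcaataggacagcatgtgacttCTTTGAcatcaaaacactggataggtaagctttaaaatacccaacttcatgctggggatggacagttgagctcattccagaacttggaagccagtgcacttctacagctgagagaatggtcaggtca
Cyp2e1: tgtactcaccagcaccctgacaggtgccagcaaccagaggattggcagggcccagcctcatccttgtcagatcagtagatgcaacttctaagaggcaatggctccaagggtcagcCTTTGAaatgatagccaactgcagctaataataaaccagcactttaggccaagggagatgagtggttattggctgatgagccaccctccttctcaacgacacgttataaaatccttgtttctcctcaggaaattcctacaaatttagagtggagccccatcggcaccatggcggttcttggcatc
Cyp1a2: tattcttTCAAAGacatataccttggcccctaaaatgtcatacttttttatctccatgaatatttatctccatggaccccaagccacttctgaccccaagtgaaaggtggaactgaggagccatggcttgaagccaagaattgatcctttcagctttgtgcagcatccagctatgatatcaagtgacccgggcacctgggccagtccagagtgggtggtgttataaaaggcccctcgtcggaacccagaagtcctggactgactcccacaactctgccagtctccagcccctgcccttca
The letters CTTTGA or TCAAAG occur in 16% of 32851 promoter windows of the same length. Slc1a2 held them at -206 and -77 from the start, Cyp2e1 at -135, Cyp1a2 at -243 and Lect2 at -31, and the windows of Glul, Axin2 and Rnf43 held none. The Slc1a2 start used by RefSeq lies 47779 bases inside the annotated gene. TATAAA on either strand, present in 13.6% of windows, lay at -31 in Cyp2e1 and -29 in Cyp1a2. GCGTG or CACGC, the core letters of the aryl hydrocarbon receptor element, lay in 32.4% of windows, and among these genes in those of Rnf43 and Lect2. No matched letters of different motifs overlapped. A match describes letters only, and no binding was measured.

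A few facts of the whole series bear on the values that follow. The summed level of 16 hepatocyte markers in TMM-scaled CPM was 188661 to 315378 in chow and 93633 to 116114 in DIO-MASH vehicle livers. These sums are not shares of reads. The TMM factors had medians of 0.818 in chow and 1.13 in DIO-MASH vehicle, which widens the difference between the sums. The median log2 fold change of all tested genes between chow and DIO-MASH vehicle was -0.01 with TMM and -0.47 without it. Without TMM, the share of higher genes among all calls in that comparison was 8.30% in place of 47.9%. For the treated groups against DIO-MASH vehicle, this median without TMM was -0.25 for the combination, -0.21 for zalfermin high, -0.13 for both zalfermin low and semaglutide high and -0.10 for semaglutide low, and with TMM it lay between -0.03 and 0. The share of higher genes among all calls went from 48% to 9.89% for the combination, from 49.6% to 13.5% for zalfermin high, from 58.9% to 19.9% for semaglutide high and from 89.4% to 69.8% for zalfermin low. Fold changes below are relative to most genes. In bulk liver, fewer cells of a type and less RNA per cell cannot be told apart. Mouse 6 of semaglutide low had the highest Slc1a2, Lgr5, Tbx3, Rnf43, Cyp2e1, Cyp1a2 and Lect2 of its group. Calls that change without it are given below with their values. No pair of libraries in a group was near identical.

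Between chow and DIO-MASH vehicle livers, the share of the 10 genes past the test was near that of all tested genes. Against DIO-MASH vehicle, Cyp1a2, Cyp2e1, Lgr5 and Slc1a2 were higher in chow vehicle livers, Glul was lower, and Rhbg, Axin2, Tbx3, Rnf43 and Lect2 did not pass the test. The counts are 4 higher and 1 lower of 10 in edgeR's quasi-likelihood test with Benjamini-Hochberg adjustment over all tested genes. Of all tested genes, 55.4% passed in this comparison, 26.5% as higher and 28.9% as lower. The median log2 fold change of the 10 genes was 0.18, beside -0.01 for all genes. The groups did not overlap in 2 of the 10 genes, Cyp1a2 and Cyp2e1, and in 16% of all tested genes.

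**Figure D1:**
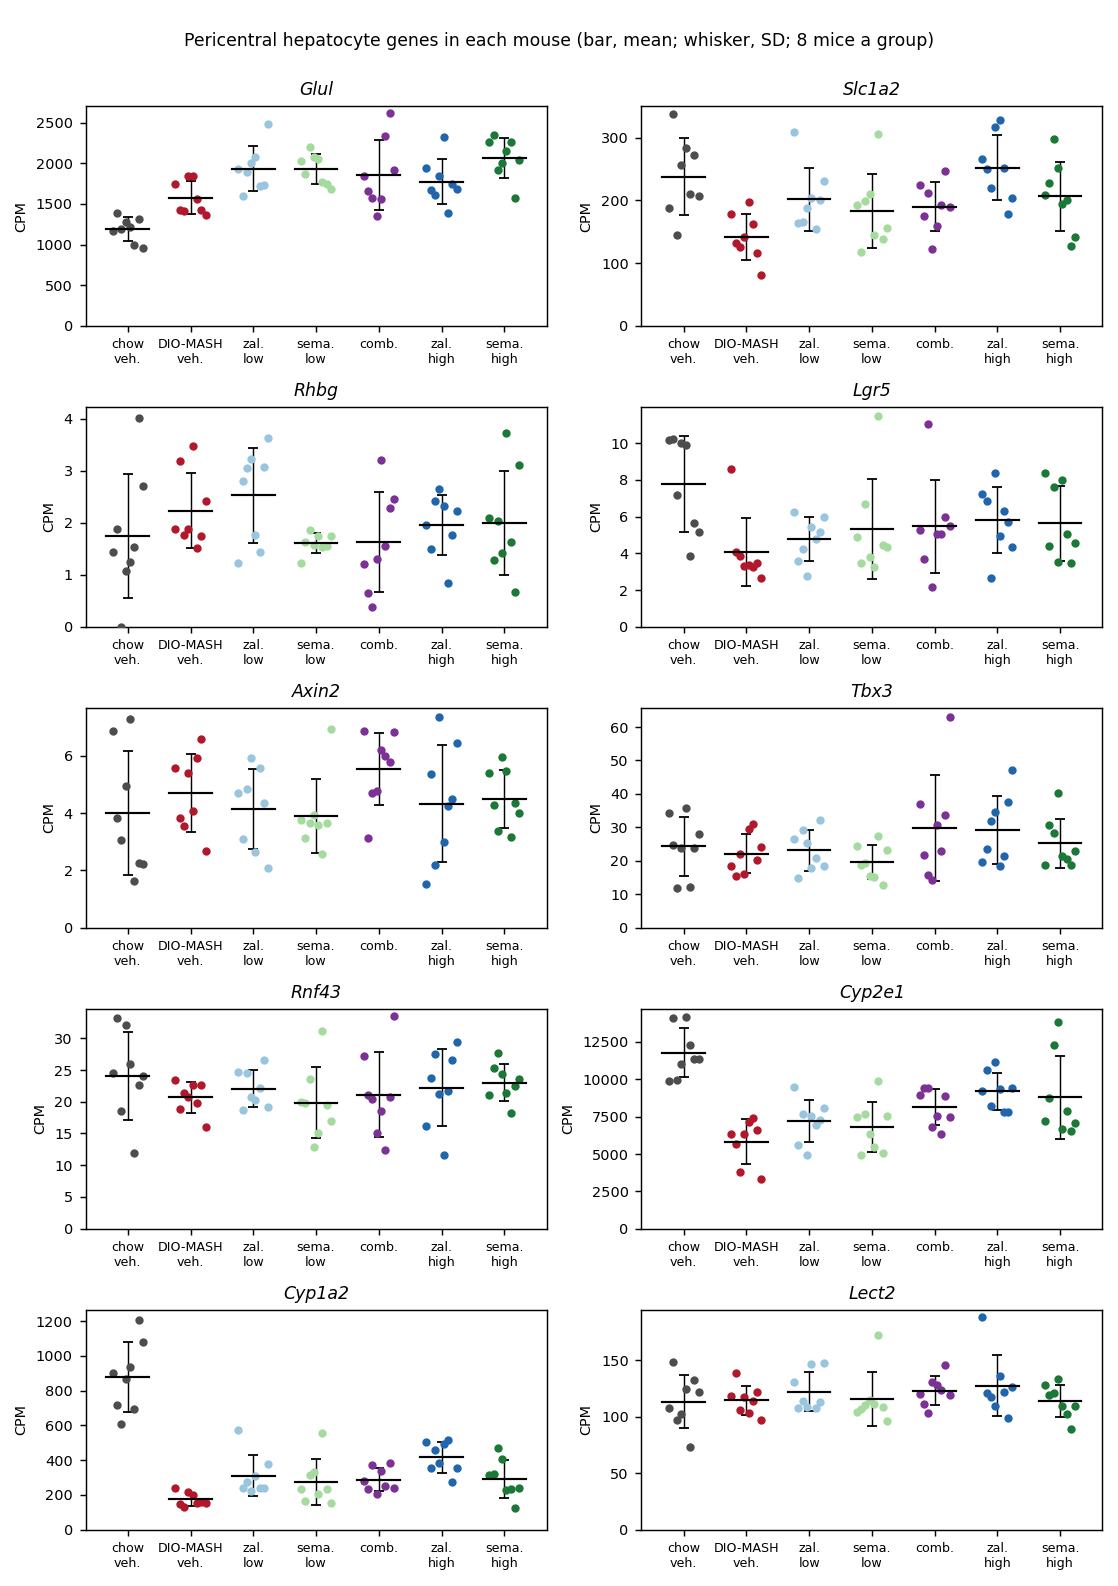
Level of each of the 10 genes in CPM (linear axes from 0) in each of 56 mice by group, with each point 1 mouse, the bar the mean and the whisker the SD of 8 mice. Every chow mouse lay above every DIO-MASH vehicle mouse in Cyp2e1 and Cyp1a2, and chow had the lowest mean of Glul at 1189 CPM.

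Cyp1a2, which hydroxylates caffeine and many aromatic amines, showed the widest difference of the 10 genes. It had 606.8, 886.5 and 1209 CPM as lowest, median and highest level in chow vehicle and 133.3, 157.4 and 238.8 CPM in DIO-MASH vehicle. The lowest chow mouse was thus well above the highest vehicle mouse. The log2 fold change was 2.32 ± 0.22 (SE), or 5.01-fold higher in chow, with an edgeR adjusted p of 3.01e-12. Cyp2e1, the ethanol-inducible P450 enzyme, had 9906, 11362 and 14156 CPM in chow and 3354, 6326 and 7406 CPM in DIO-MASH vehicle. It was 2.02-fold higher in chow, with a log2 fold change of 1.02 ± 0.16 and an edgeR adjusted p of 2.76e-07, again without overlap.

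Among the genes of glutamine synthesis, Glul and its glutamate transporter went opposite ways. Glul had 955.0, 1199.6 and 1383 CPM in chow and 1358, 1496 and 1841 CPM in DIO-MASH vehicle, and only the highest chow mouse reached into the vehicle range. Its level was 1.33-fold higher in DIO-MASH vehicle than in chow, a log2 fold change of -0.41 ± 0.11 for chow with an edgeR adjusted p of 0.00114. Slc1a2 had 144.1, 233.5 and 337.2 CPM in chow and 80.4, 136.3 and 197.4 CPM in DIO-MASH vehicle. It was 1.68-fold higher in chow, with a log2 fold change of 0.75 ± 0.18 and an edgeR adjusted p of 0.000408, and the groups overlapped. Rhbg ranged from 0 to 4.02 CPM in chow and from 1.52 to 3.47 CPM in DIO-MASH vehicle, a log2 fold change of -0.33 ± 0.33 that did not pass (edgeR adjusted p = 0.401).

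Of the readouts of the Wnt pathway, only Lgr5 passed the test among the 4 in this list. It had 3.84, 8.53 and 10.2 CPM in chow and 2.68, 3.44 and 8.58 CPM in DIO-MASH vehicle, where mouse 1 alone exceeded 4.08 CPM. Lgr5 was 1.88-fold higher in chow, with a log2 fold change of 0.91 ± 0.27 and an edgeR adjusted p of 0.00306. Axin2 had 1.61 to 7.28 CPM in chow and 2.68 to 6.59 CPM in DIO-MASH vehicle, and its log2 fold change of -0.22 ± 0.26 did not pass. Tbx3 (0.14 ± 0.24) and Rnf43 (0.22 ± 0.17) had small log2 fold changes that did not pass either. Lect2, at 113.4 ± 23.4 CPM (SD, n = 8) in chow and 114.5 ± 12.8 CPM in DIO-MASH vehicle, differed by -0.01 ± 0.11 on the log2 scale. With library totals in place of TMM, the log2 fold changes in chow of Slc1a2 (0.28, adjusted p = 0.128) and Lgr5 (0.45, adjusted p = 0.123) no longer passed, and Rhbg (-0.83), Axin2 (-0.69) and Lect2 (-0.49) passed as lower.

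Against DIO-MASH vehicle, both P450 genes rose in zalfermin high, semaglutide high and the combination, and none of the readouts of the Wnt pathway passed the test. Zalfermin high had 3 of 10 genes higher, Slc1a2, Cyp2e1 and Cyp1a2, and none lower. In that comparison 17.2% of all tested genes passed, 8.54% as higher and 8.68% as lower. Semaglutide high had 3 of 10 higher, Glul, Cyp2e1 and Cyp1a2, where 2.43% of all tested genes passed, 1.43% as higher and 1% as lower. The combination had 2 of 10 higher, Cyp2e1 and Cyp1a2, where 20.9% of all tested genes passed, 10% as higher and 10.9% as lower. The median log2 fold change of the 10 genes was 0.29 in zalfermin high, 0.29 in semaglutide high and 0.32 in the combination, with medians of all tested genes between -0.03 and -0.01. Axin2, Tbx3, Rnf43, Lgr5, Rhbg and Lect2 did not pass in any of the 5 treated groups. The same 8 vehicle mice serve in all of these comparisons.

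**Figure D2:**
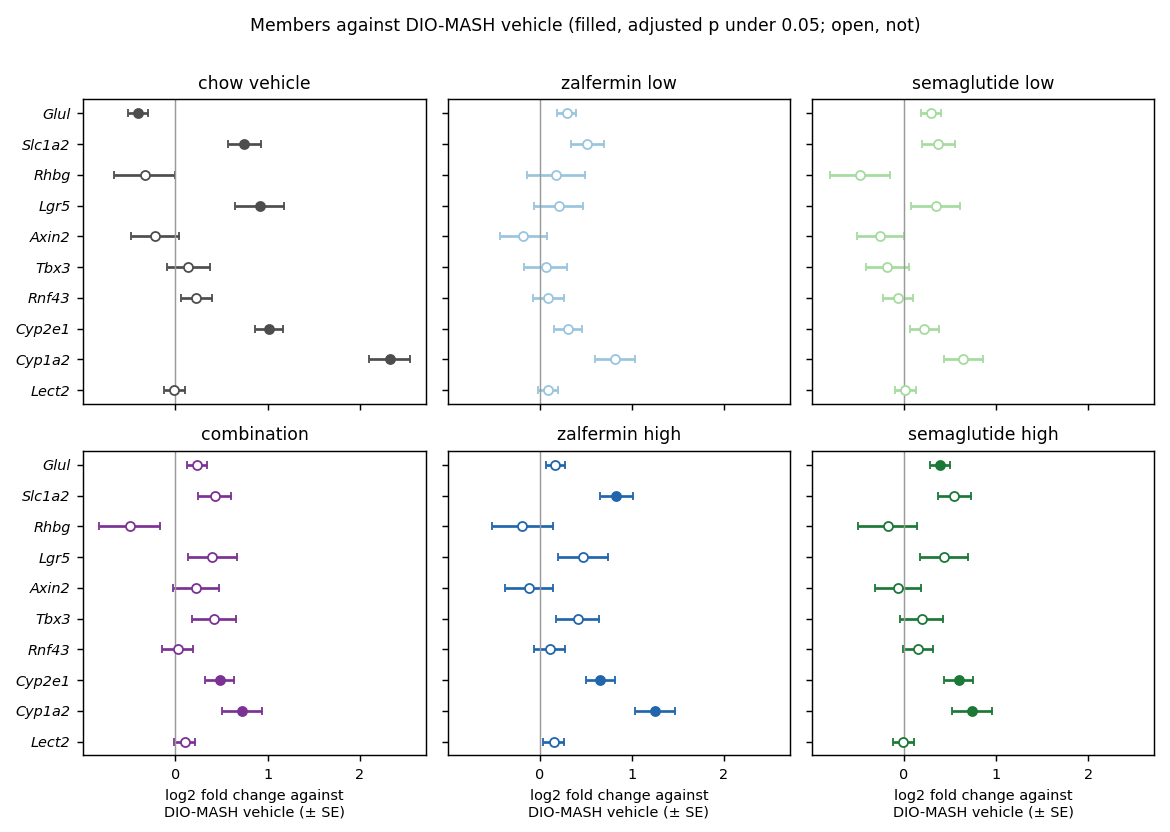
Log2 fold change (± SE) of the 10 genes in chow vehicle and in each treated group against DIO-MASH vehicle, with 8 mice a group and filled points for an adjusted p under the threshold of 0.05. Cyp1a2 lay farthest to the right in chow vehicle (2.32) and zalfermin high (1.25), and no point is filled in zalfermin low and semaglutide low.

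Cyp1a2 rose most in zalfermin high, to 272.7, 420.1 and 518.5 CPM as lowest, median and highest level, above every DIO-MASH vehicle mouse. Its log2 fold change there was 1.25 ± 0.22, or 2.38-fold, with an edgeR adjusted p of 2.71e-05. In the combination Cyp1a2 had 204.5, 265.9 and 382.3 CPM and rose 1.65-fold (log2 fold change 0.72 ± 0.22, edgeR adjusted p = 0.0126), with overlapping groups. In semaglutide high it had 124.2, 276.2 and 472.0 CPM and was 1.67-fold higher (0.74 ± 0.22, edgeR adjusted p = 0.0493), just past the threshold and with overlap at the low end. Zalfermin low had 221.2, 256.9 and 572.4 CPM, a log2 fold change of 0.82 ± 0.22 with an edgeR adjusted p of 0.0580. Semaglutide low had 153.6, 234.7 and 556.0 CPM, a log2 fold change of 0.65 ± 0.22 with an edgeR adjusted p of 0.361. Its highest value came from mouse 6.

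Cyp2e1 followed with smaller changes. Zalfermin high had 7805, 9290 and 11146 CPM, all above the DIO-MASH vehicle mice, and the log2 fold change was 0.66 ± 0.15, or 1.58-fold (edgeR adjusted p = 0.00161). Semaglutide high had 6536, 7544 and 13864 CPM with mice 3 and 4 far above the others, and rose 1.51-fold (0.59 ± 0.15, edgeR adjusted p = 0.0257). The combination had 6338, 8234 and 9419 CPM and rose 1.39-fold (0.48 ± 0.15, edgeR adjusted p = 0.0206). Both groups overlapped with DIO-MASH vehicle. In zalfermin high, Cyp1a2 and Cyp2e1 were the 2 of 10 genes without overlap with DIO-MASH vehicle. The share of all tested genes without overlap was not counted for treated groups against DIO-MASH vehicle. Zalfermin low, at 4906 to 9487 CPM, and semaglutide low, at 4918 to 9874 CPM, had log2 fold changes of 0.31 and 0.22 that did not pass.

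Slc1a2 passed against DIO-MASH vehicle in zalfermin high alone among treated groups, with 178.9, 250.3 and 327.4 CPM and a 1.78-fold rise (log2 fold change 0.83 ± 0.18, edgeR adjusted p = 0.000634). Its level in that group did not pass against chow either (0.08 ± 0.18). The other treated groups had log2 fold changes of Slc1a2 between 0.37 and 0.54, with edgeR adjusted p from 0.0807 to 0.554. Glul passed in semaglutide high, with 1572, 2097 and 2347 CPM and a log2 fold change of 0.39 ± 0.11, or 1.31-fold (edgeR adjusted p = 0.0338). The other treated groups had log2 fold changes of Glul between 0.17 and 0.29 that did not pass. All 5 treated groups had a higher mean Glul level than DIO-MASH vehicle, which itself was above chow.

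The low doses gave no member past the threshold. In zalfermin low, edgeR called 0 of 10, with 3 at an unadjusted p under 0.05, and DESeq2 called 1, Cyp1a2, with an adjusted p of 0.00597 and 5 genes without an adjusted p. In that comparison edgeR called 0.468% of all tested genes, 0.418% as higher and 0.0496% as lower. Of the 14105 tested genes, 1593 had an unadjusted p under 0.05 there in edgeR. Cyp1a2 in zalfermin low also passed in edgeR without zalfermin low mouse 4 (adjusted p = 0.0430), without zalfermin low mouse 6 (0.0454) or without semaglutide low mouse 6 (0.0223), which enters through the shared spread. In semaglutide low, edgeR and DESeq2 called 0 of 10, with 3 at an unadjusted p under 0.05 in edgeR and 5 without an adjusted p in DESeq2. In that comparison edgeR called 0.00% of all tested genes, with 1222 at an unadjusted p under 0.05, and DESeq2 called 32.

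The calls in semaglutide high and that of Cyp2e1 in the combination depended on single mice and on the processing. In semaglutide high, 0 of 10 genes passed without DIO-MASH vehicle mouse 2, 3 or 8 or without semaglutide high mouse 2, 3 or 4, and 1 passed without vehicle mouse 7 or semaglutide high mouse 1. Cyp1a2 also missed the threshold without vehicle mouse 4, 5 or 6, and Glul without semaglutide high mouse 6. Over these and the other alternatives the adjusted p in edgeR or DESeq2 ranged from 0.0102 to 0.191 for Cyp1a2, from 0.00887 to 0.174 for Glul and from 0.00939 to 0.122 for Cyp2e1. Slc1a2 passed without semaglutide high mouse 7 (adjusted p = 0.0306). In the combination, Cyp1a2 passed in all 24 alternatives (largest adjusted p = 0.0349), and Cyp2e1 missed the threshold without vehicle mouse 3 (adjusted p = 0.0516) or 8 (0.0562). There, Slc1a2 passed without vehicle mouse 5 (0.0393), and both Slc1a2 (0.0427) and Glul (0.0442) passed without combination mouse 4. In zalfermin high the same 3 genes passed in all 24 alternatives.

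Against chow vehicle, Glul and Cyp1a2 differed in every treated group, in opposite directions. Glul was higher in each, with log2 fold changes of 0.70 ± 0.11 in zalfermin low, 0.70 ± 0.11 in semaglutide low, 0.64 ± 0.11 in the combination, 0.58 ± 0.11 in zalfermin high and 0.80 ± 0.11 in semaglutide high. Cyp1a2 was lower in each, by -1.50 ± 0.22, -1.68 ± 0.22, -1.60 ± 0.22, -1.07 ± 0.22 and -1.59 ± 0.22 in the same order. The largest edgeR adjusted p among these 10 values was 0.000101. How many of all tested genes differed from chow in every treated group was not counted. Cyp1a2 did not overlap between chow and any treated group, and Glul overlapped in the combination alone, where mouse 4 had 1346 CPM. The share of all tested genes without overlap was not counted for treated groups against chow. Cyp2e1 was lower than in chow in zalfermin low (-0.71 ± 0.15), semaglutide low (-0.79 ± 0.15), the combination (-0.54 ± 0.15) and semaglutide high (-0.42 ± 0.15), and its difference in zalfermin high (-0.36 ± 0.15, edgeR adjusted p = 0.0629) did not pass. Lgr5 was lower in zalfermin low (-0.71 ± 0.26, edgeR adjusted p = 0.0243), and in the other treated groups its log2 fold changes of -0.57 to -0.44 did not pass.

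In counts, 4 of 10 genes passed against chow in zalfermin low, where 47.5% of all tested genes did. The count was 3 in semaglutide low (45.6% of all tested genes), 3 in the combination (32.4%), 2 in zalfermin high (37.2%) and 3 in semaglutide high (39.9%). The semaglutide low count was 5 without chow mouse 6, where 44.8% of all tested genes passed, and 6 without semaglutide low mouse 6, where 48.8% did. Without chow mouse 6, Lgr5 (log2 fold change -0.68 ± 0.26, edgeR adjusted p = 0.0328) and Rnf43 (-0.39 ± 0.16, edgeR adjusted p = 0.0405) also passed as lower than in chow. Without semaglutide low mouse 6, those that also passed as lower were Slc1a2 (-0.52 ± 0.18, edgeR adjusted p = 0.0125), Lgr5 (-0.81 ± 0.26, edgeR adjusted p = 0.00765) and Rnf43 (-0.41 ± 0.17, edgeR adjusted p = 0.0388). With all mice the log2 fold changes of these genes were -0.38, -0.57 and -0.29.

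Ordered by mean level, few neighbouring groups differed by more than their spread. For Glul the gap of 387.5 CPM between DIO-MASH vehicle, the sixth of the groups, and chow vehicle, the lowest, was 2.18 times their pooled SD. The other gaps in the order semaglutide high, zalfermin low, semaglutide low, combination, zalfermin high and DIO-MASH vehicle were all smaller than the pooled SD. For Cyp1a2 chow exceeded zalfermin high by 2.94 SD, zalfermin high exceeded zalfermin low by 1.04 SD, and semaglutide low exceeded DIO-MASH vehicle by 1.03 SD. For Cyp2e1 the gap between chow and zalfermin high alone exceeded the pooled SD, at 1.77 times. For Slc1a2, Rhbg, Lgr5, Axin2, Tbx3, Rnf43 and Lect2 no neighbouring groups stood more than 1 pooled SD apart.

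No difference between treated groups passed for these genes. In the 6 direct comparisons (the combination against each other treated group, and the high against the low dose of each drug), edgeR and DESeq2 called 0 of 60 gene and comparison pairs, with 7 at an unadjusted p under 0.05 in edgeR and 1 without an adjusted p in DESeq2. Over all 14105 tested genes, the 6 comparisons together had 11505 such pairs at an unadjusted p under 0.05 in edgeR. Of all tested genes, 6.62% passed between the combination and zalfermin low, 4.21% between the combination and semaglutide low, 0.503% between the combination and zalfermin high and 1.89% between the combination and semaglutide high. Between the doses of zalfermin 1.84% passed, and between those of semaglutide 0.00%, with 549 genes at an unadjusted p under 0.05 and 0 by DESeq2. Cyp1a2 had a log2 fold change of 0.43 ± 0.21 between zalfermin high and low (unadjusted p = 0.0484, edgeR adjusted p = 0.364) and of -0.53 ± 0.21 between the combination and zalfermin high (edgeR adjusted p = 0.300).

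Whether both low doses together gave more or less than the sum of each was tested as an interaction on the log2 scale. EdgeR and DESeq2 called 0 of 10 genes, and 0.0142% of all tested genes passed in edgeR. At an unadjusted p under 0.05 in edgeR there were 952 of the 14105 tested genes. Among the 10 genes there were 2, Cyp1a2 (-0.75 ± 0.30, edgeR adjusted p = 0.628) and Glul (-0.35 ± 0.15, edgeR adjusted p = 0.643), and both estimates lay below additivity. Axin2 (0.66 ± 0.36) and Tbx3 (0.53 ± 0.33) were the only 2 of the 10 genes with positive estimates, which did not pass.

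The label numbers of the mice fall into 4 series, A to D, with 22, 15, 16 and 3 mice, and what separates them is not stated. Series D holds mice of chow and DIO-MASH vehicle only, so that it gives no value for treatment. Within series A, B and C, the log2 difference of Cyp1a2 between chow and DIO-MASH vehicle was 2.11, 1.76 and 2.41, and that of Cyp2e1 was 0.98, 0.85 and 0.83. For Lgr5 it was 0.77, 1.0 and 1.07 and for Glul -0.31, -0.50 and -0.36. Slc1a2 gave 0.72, -0.08 and 0.86, where series B held 1 chow mouse. In zalfermin high, the differences from vehicle within the 3 series were 1.22, 1.36 and 1.0 for Cyp1a2, 0.64, 0.76 and 0.29 for Cyp2e1 and 0.68, 0.96 and 0.48 for Slc1a2. In the combination they were 0.51, 0.70 and 0.95 for Cyp1a2 and 0.52, 0.33 and 0.22 for Cyp2e1. In semaglutide high they were 0.99, 0.37 and 0.15 for Cyp1a2, 0.43, 0.39 and 0.27 for Glul and 0.77, 0.39 and -0.04 for Cyp2e1, so that the rise of Cyp2e1 was not seen in series C.

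Other zonated genes were set beside these 10. Of 24 other pericentral hepatocyte genes, 13 were higher and 3 lower in chow than in DIO-MASH vehicle, with a median log2 fold change of 0.46. The P450 genes Cyp2c54 (3.61 ± 0.40), Cyp2c37 (2.94 ± 0.37) and Cyp2c29 (2.24 ± 0.29) were highest, and the transporters Slc22a3 (-1.23 ± 0.21) and Slc13a3 (-0.89 ± 0.23) and the glutathione transferase Gstm3 (-1.20 ± 0.33) were lower. In the combination 8 rose and 2 fell, and in zalfermin high 11 rose and 3 fell, with Cyp2c37 at 2.58 ± 0.37 and 2.38 ± 0.36, and Gstm3 at -1.42 ± 0.33 and -2.15 ± 0.34. Zalfermin low had 2 higher, semaglutide high 5 higher, and semaglutide low none called. Among the genes that fell in zalfermin high was also a P450 gene, Cyp3a11 (-0.55 ± 0.16).

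3 further targets of beta-catenin in that list, named after their values were seen, did not move as 1 group. Notum, a secreted esterase that inactivates Wnt ligands, had 32.5 ± 3.34 CPM in chow and 13.2 ± 3.40 CPM in DIO-MASH vehicle (SD, n = 8), without overlap and with a log2 fold change of 1.29 ± 0.18 (edgeR adjusted p = 2.37e-08). Notum rose in the combination (0.65 ± 0.18) and in zalfermin high (0.63 ± 0.18). The feedback inhibitor Nkd1 (-0.03 ± 0.15) and the transcription factor Sp5 (-0.09 ± 0.26) did not pass between chow and DIO-MASH vehicle.

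Of 20 periportal hepatocyte genes, 14 were higher and 1 lower in chow, with a median log2 fold change of 1.19. In the combination 9 rose and none fell, and in zalfermin high 12 rose and 1 fell, with medians of 0.51 and 0.75. Zalfermin low had 4 higher and semaglutide high 3 higher, and semaglutide low had none called. The urea cycle gene Cps1 rose by 1.33 ± 0.20 in the combination and 1.56 ± 0.20 in zalfermin high, and the glutaminase Gls2 was 2.06 ± 0.23 higher in chow. Over the 6 comparisons the medians of the 10 genes ran from 0.12 to 0.32 and the periportal medians from 0.30 to 1.19. In semaglutide high they were 0.29 and 0.31, and the difference between the lists was not tested.

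**Figure D3:**
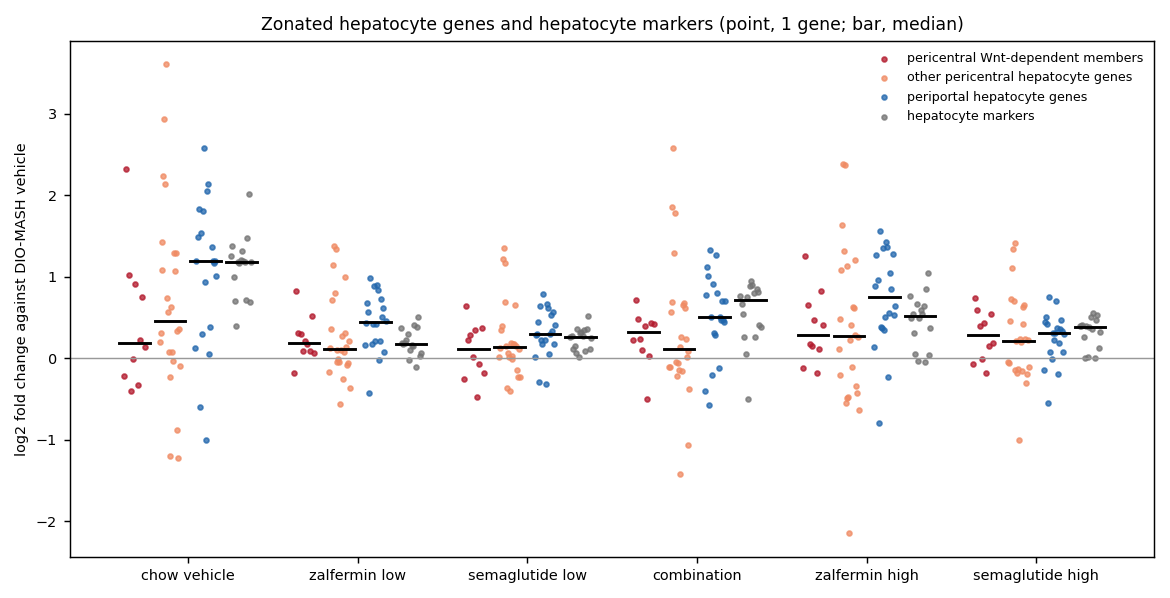
Log2 fold changes against DIO-MASH vehicle of the 10 genes, 24 other pericentral genes, 20 periportal genes and 16 hepatocyte markers in 6 comparisons, with each point 1 gene and each bar the median of a list. In chow vehicle the median was 0.18 for the 10 genes, 0.46 for other pericentral genes, 1.19 for periportal genes and 1.18 for hepatocyte markers.

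The Wnt ligands Wnt2 and Wnt9b and the R-spondin gene Rspo3 were low in whole liver. Which cells their reads came from cannot be told in bulk liver. Wnt2 had 2.69 ± 0.70 CPM in chow and 2.19 ± 0.68 CPM in DIO-MASH vehicle, and Wnt9b had 1.49 ± 0.55 and 1.33 ± 0.50 CPM (SD, n = 8). Neither ligand passed in chow or in any treated group. Rspo3 had 5.97 ± 1.18 CPM in chow and 9.40 ± 1.22 CPM in DIO-MASH vehicle. The groups did not overlap, and its log2 fold change of -0.66 ± 0.13 made it 1.58-fold higher in DIO-MASH vehicle (edgeR adjusted p = 4.22e-05). In the treated groups the mean Rspo3 level was 7.47 to 8.90 CPM, with log2 fold changes of -0.33 to -0.08 that did not pass.

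**Figure D4:**
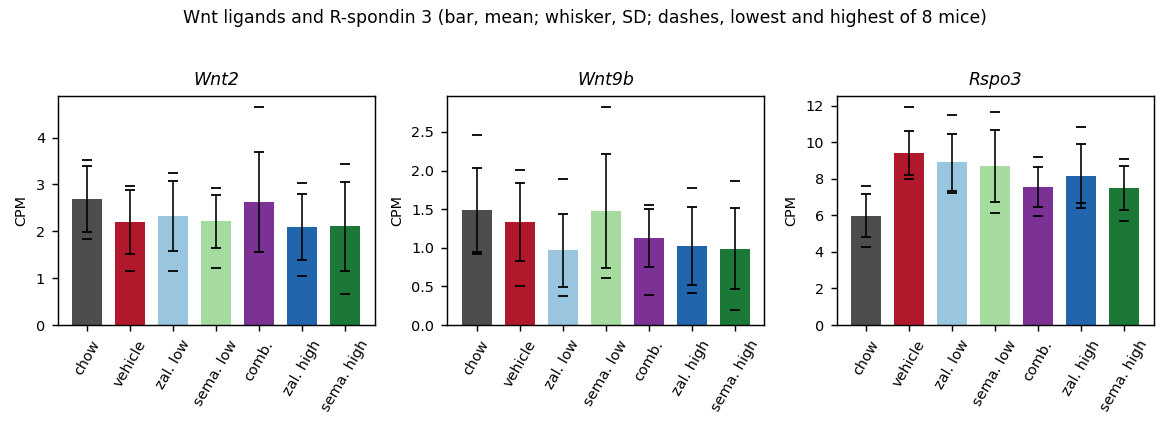
Mean level in CPM (bars from 0, whiskers SD, dashes lowest and highest of 8 mice) of Wnt2, Wnt9b and Rspo3 in the 7 groups. Rspo3 was 5.97 CPM in chow and 9.40 CPM in DIO-MASH vehicle, and the whiskers of all groups overlap for Wnt2 and Wnt9b.

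Further parts of the pathway were counted by list, and in chow each list had a smaller share past the threshold than the 55.4% of all tested genes. Of 11 tested Wnt ligands and R-spondins (13 listed), 5 were lower and none higher in chow, led by Wnt5a (-2.17 ± 0.37) and Wnt4 (-2.00 ± 0.34), and none passed in a treated group. Of 15 receptors and secretion factors, 5 were higher and 3 lower in chow. The R-spondin receptor Lgr4 was higher in chow (0.80 ± 0.19), in the combination (0.53 ± 0.19) and in zalfermin high (0.81 ± 0.19), and Wls, which carries Wnt ligands to the cell surface, was lower in each (-1.75 ± 0.21, -0.67 ± 0.20 and -0.62 ± 0.20). In total, 3 rose and 1 fell in the combination, 2 rose and 1 fell in zalfermin high, and none passed in the other treated groups. Of 20 components of the destruction complex and TCF factors, 5 were higher and 2 lower in chow, with beta-catenin itself (Ctnnb1) at -0.13 ± 0.05. In the combination 2 rose, Axin1 (0.38 ± 0.08) and Dvl1 (0.34 ± 0.08), and none passed in the other treated groups. Of 9 tested Wnt inhibitors (12 listed), 2 were lower in chow, Dkk3 (-1.75 ± 0.30) and Sfrp1 (-0.84 ± 0.36). In the combination Znrf3, a partner of Rnf43, rose by 0.40 ± 0.15 and Sfrp1 fell by 1.15 on the log2 scale, and none passed in the other treated groups.

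Markers of the cells in these livers moved with the same comparisons. Of 16 hepatocyte markers, 16 were higher in chow, 11 in the combination, 11 in zalfermin high, 3 in semaglutide high and none in either low dose, with median log2 fold changes of 1.18, 0.71, 0.52 and 0.39 in the first 4. Their summed level was 129582 to 179784 CPM in the combination, 107306 to 180869 in zalfermin high, 93535 to 158102 in semaglutide high, 104484 to 145325 in zalfermin low and 100729 to 153550 in semaglutide low. The log2 fold change of Cyp2e1 was below the median in chow (1.02) and the combination (0.48). It was above the median in zalfermin high (0.66) and semaglutide high (0.59). That of Cyp1a2 was above the median in chow (2.32), zalfermin high (1.25) and semaglutide high (0.74), and nearly equal to it in the combination (0.72). These differences from the medians were not tested. Glul and Lect2 were not raised with the hepatocyte markers in chow. The part of these markers and of those that follow in the results on the 10 genes was not tested.

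Of 9 central vein endothelial markers, 6 were lower in chow, 3 in the combination, 2 in zalfermin high and 1 in semaglutide high, and none was higher. Their summed level was 37.7 to 47.3 CPM in chow, 68.7 to 110.3 in DIO-MASH vehicle, 39.3 to 67.0 in the combination and 48.03 to 60.9 in zalfermin high, and all 9 were detected in each group. It was 52.3 to 90.9 in zalfermin low, 34.3 to 92.0 in semaglutide low and 45.3 to 74.5 in semaglutide high. This list includes Wnt2, Wnt9b and Rspo3, given above, of which Rspo3 alone passed, in chow. Among its genes at 1 CPM or more, Fabp4 had the most negative log2 fold changes. They were -2.97 ± 0.26 in chow, -1.80 ± 0.24 in the combination and -1.43 ± 0.24 in zalfermin high. Of 11 sinusoidal endothelial markers, 1 was higher and 4 lower in chow and 2 were lower in the combination. Of 11 stellate cell and fibroblast markers, 9 were lower in chow, 8 in the combination, 3 in zalfermin high and 2 in semaglutide high, with a summed level of 194.7 to 332.5 CPM in chow, 1114 to 1903 in DIO-MASH vehicle, 442.6 to 889.2 in the combination and 357.0 to 837.2 in zalfermin high. Of 8 monocyte-derived macrophage markers, 8 were lower in chow, 5 in the combination and 6 in zalfermin high. Of 8 Kupffer cell markers, 3 were higher (Marco, Cd163 and Timd4) and 1 lower (Cd5l) in chow. In the combination 3 were higher (Marco, Timd4 and Clec4f) and 1 lower (C6), and 1 was higher in zalfermin high (Clec4f). Of 7 cholangiocyte markers, 4 were lower in chow, where 1 was at 0 in every mouse, and 1, Spp1, was lower in the combination. Spp1 is also in the list of monocyte-derived macrophage markers, and it counts as lower in both lists in chow and in the combination. Of 9 T and B cell markers in the table (10 listed), 9 were lower in chow, 1 in the combination and 4 in semaglutide high, with a summed level of at most 59.5 CPM in any mouse. Of 5 red blood cell markers, Alas2 was higher in chow and lower in the combination. None of these lists had a marker past the threshold in either low dose.

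Between mice of the same group, some of the 10 genes varied together. Pearson's r of log2 CPM over 56 mice was computed after subtracting group means, with a permutation test of mice within groups. Of 45 pairs, 17 passed with Benjamini-Hochberg adjustment, all positive, and 11 of these 17 also passed with Spearman's rho and without semaglutide low mouse 6. The 6 pairs lost without that mouse were Lgr5 with Rnf43, Cyp2e1 and Lect2, and Cyp2e1 with Tbx3, Rnf43 and Lect2, with r of 0.30 to 0.37 over all mice and of 0.25 to 0.30 without it (permutation test, adjusted p of 0.0592 to 0.185). Glul with Cyp1a2 (r = 0.37, adjusted p = 0.0263) and Axin2 with Rnf43 (r = 0.40, adjusted p = 0.0356) passed the permutation test without it and not with it. Slc1a2 varied with Cyp2e1 (r = 0.73, rho = 0.70) and with Cyp1a2 (r = 0.72, rho = 0.69), each with a permutation p of 1e-05, the smallest that 100000 permutations can give, and an adjusted p of 0.000113. Without the 2 mice farthest from the median of Slc1a2, r was 0.67 and 0.71. In each pair that follows, the 2 farthest mice were also chosen by 1 gene only. That gene was Cyp2e1 for its pair with Cyp1a2, Slc1a2 for its pair with Lgr5, and otherwise the gene named first. Outlying mice of the other gene were not left out. Cyp1a2 varied with Lect2 (r = 0.59, rho = 0.59, permutation p = 1e-05, adjusted p = 0.000113, r = 0.52 without the 2 farthest mice). Cyp1a2 and Cyp2e1 varied together as well (r = 0.55, rho = 0.49, permutation p = 7e-05, adjusted p = 0.000525, r = 0.55 without the 2 farthest mice).

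Glul varied with Slc1a2 (r = 0.51, rho = 0.57, permutation p = 5e-05, adjusted p = 0.00045, r = 0.45 without the 2 farthest mice). Its r was 0.20 with Cyp2e1 and 0.05 with Axin2, and neither passed. Tbx3 varied with Rnf43 (r = 0.66, rho = 0.65, permutation p = 1e-05, adjusted p = 0.000113, r = 0.61 without the 2 farthest mice). Axin2 joined Tbx3 (r = 0.44, rho = 0.45, permutation p = 0.00169, adjusted p = 0.0076, r = 0.37 without the 2 farthest mice). Lgr5 varied with Slc1a2 (r = 0.54, rho = 0.50, permutation p = 0.00011, adjusted p = 0.000707, r = 0.47 without the 2 farthest mice), and its r of 0.22 with Axin2 did not pass. Genes read in the same libraries share depth and scaling, which can move such values.

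**Figure D5:**
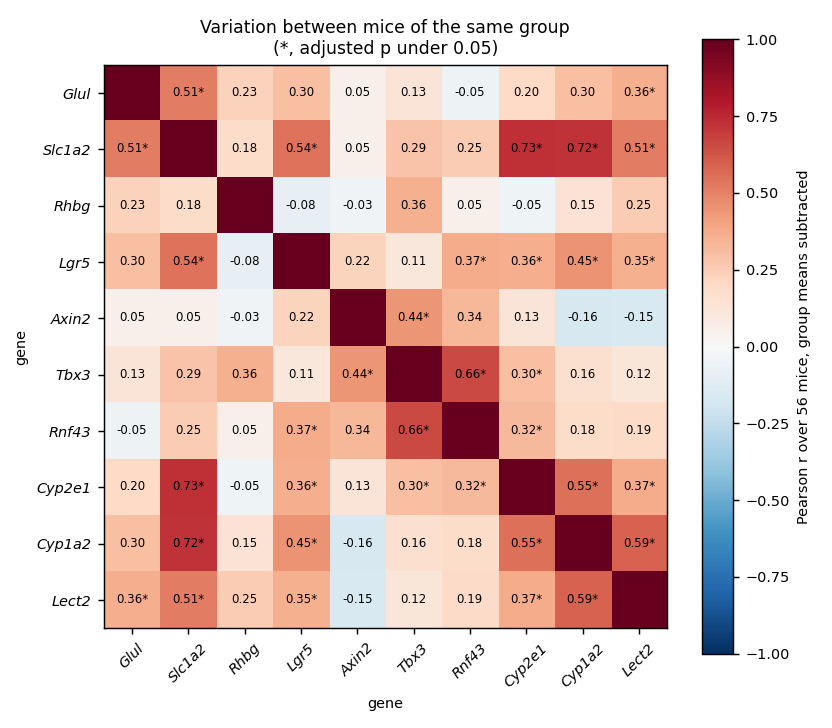
Pearson r of each pair of the 10 genes over 56 mice after subtracting group means, with colour and number giving r and an asterisk an adjusted p under 0.05. The highest values are Slc1a2 with Cyp2e1 (0.73) and Cyp1a2 (0.72) and Tbx3 with Rnf43 (0.66).

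Over 11874 genes with a mean of at least 1 CPM, Slc1a2 had the highest r with Glul of all (0.51), given here as a description. It was followed by Uckl1 (0.50), Gnb1l (0.50), Bcl2l12 (0.46) and Cldn2 (0.46), the gene of a tight junction claudin. Cldn2, like Glul, was lower in chow than in DIO-MASH vehicle (log2 fold change -0.85, edgeR adjusted p = 2.08e-06). The genes nearest to Axin2 were Snx18 (0.61), Nfyc (0.57), Dhodh (0.56), Slc25a47 (0.53) and Arid3b (0.53), with Tbx3 at rank 52 and Rnf43 at rank 379.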

How the data were processed

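Liver RNA of 56 mice was sequenced from stranded mRNA libraries. The deposited table holds whole-number read counts per gene, 1 column a mouse, which the authors made on GRCm38; their methods name an alignment with STAR, and the submitters' processing notes name Trim Galore 0.6.4 and Salmon 1.9.0. The counting step and its use of strand are not given in the sources used here. The study left out 1 mouse of semaglutide low that is not marked in the table, so all 56 were used.

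Genes that reached 5 reads in at least 3 mice were tested in 1 fit of the 7 groups with edgeR 4.0.16 (R 4.3.3; TMM, quasi-likelihood F test, two-sided) and Benjamini-Hochberg adjustment over all 14105 genes, with a threshold of 0.05. SE is the log2 fold change divided by the root of F. Log2 CPM used a prior count of 2. The step was tested on simulated data for the combination against DIO-MASH vehicle (13978 genes, 200 of them changed 2-fold). There, 97% of changed genes were called and 2.51% of calls were false. The changed genes were drawn from genes with more reads than Rhbg, and the groups otherwise had the same means. The 97% therefore does not hold for Rhbg or for changes smaller than 2-fold. Correlations used permutation within groups (NumPy 2.4.6, SciPy 1.17.1). DESeq2 1.42.0, other scalings, filters, a covariate for number series, fits of the compared groups only and leaving out each mouse were alternatives. Gene models are GENCODE vM21 and promoters RefSeq.

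The 10 genes, the comparison lists and the tests were chosen with earlier results of these data known. Notum, Nkd1 and Sp5 were named after their values were seen, outside the rule that follows. Named are all 10 genes; of each other list up to 3 rises and 3 falls past the threshold at 1 CPM or more, in chow, combination and zalfermin high against DIO-MASH vehicle, of which a selection is printed; the 5 genes nearest to Glul and Axin2; and Wnt2, Wnt9b and Rspo3.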

Additional observations from a re-analysis of the deposited data

Results flagged for a closer look

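In 70 pairs of a gene and a group, 1 mouse stood apart from the other 7 by Dixon's criterion (its gap to the nearest mouse as a share of the group's range, in log2 CPM) in 4 pairs, and chance gives about 1 in 20. Rhbg had 0 reads and 0 CPM in chow vehicle mouse 3, beside 1.08 to 4.02 CPM in the other chow mice. Lgr5 was 8.58 CPM in DIO-MASH vehicle mouse 1, beside 2.68 to 4.08 CPM. Axin2 was 6.93 CPM in semaglutide low mouse 8, beside 2.58 to 3.95 CPM. Lect2 was 172.6 CPM in semaglutide low mouse 6, beside 96.0 to 115.1 CPM. The cause of each was not tested.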

How the results depend on the processing

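The alternatives were DESeq2, DESeq2 size factors, library totals without TMM, looser and stricter filters, number series as a covariate, only the compared groups, and each mouse left out. No called member changed sign in them. The number of members past the threshold was 5 to 6 for chow vehicle and 3 for zalfermin high against DIO-MASH vehicle in all of these. For semaglutide high (3) it was 0 with library totals, 1 with number series, 1 with only the compared groups, and 0 to 4 over mice left out. In that group Cyp1a2 also missed the threshold in edgeR with DESeq2 size factors (adjusted p = 0.0535), the looser filter (0.0597) and the stricter filter (0.0537). Cyp1a2 passed there in 7 of 24 alternatives. For the combination (2) the number of members was 1 with library totals and 1 to 4 over mice left out. For zalfermin low (0) it was 1 with number series, 1 with only the compared groups, 1 with DESeq2, and 0 to 1 over mice left out. Against chow vehicle it was 4 for zalfermin high (2) with library totals and 5 for semaglutide low (3) with number series, with 3 to 6 for semaglutide low over mice left out. For the interaction and the direct comparisons it was 0 in each alternative run, and the direct comparisons were not repeated with mice left out. The cause of these changes was not tested. Over all genes, DESeq2 called 211 in zalfermin low, 32 in semaglutide low and 516 in semaglutide high against vehicle, where edgeR called 66, 0 and 343. It called 176 between the combination and zalfermin high, 415 between the combination and semaglutide high and 14 for the interaction, where edgeR called 71, 266 and 2. Correlated pairs numbered 17, 16 by Spearman's rho and 13 without semaglutide low mouse 6. Depth limits Rhbg, Axin2 and Lgr5 most. The labels give no replicate numbers shared between groups and do not say whether mice with neighbouring numbers form a set, and no block by such sets was fitted.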
